A study of Homo sapiens with 12 samples.

Results

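The immediate early genes and AP-1 factors described here are FOS, FOSB, FOSL2, JUN, JUNB, JUND, EGR1, IER2, IER3 and DUSP1. They were taken as every probe set whose annotated symbol, current or former, was one of these 10 names, which gave 24 of the 54613 probe sets tested and 10 of 19775 genes. RNA had been measured in HD-MB03 cells, an established human medulloblastoma line with an amplified MYC gene, on 12 Affymetrix Human Genome U133 Plus 2.0 arrays with 3 biological replicates per group. The groups were 1 µM entinostat (named MS275 in the sample titles) for 24 h, DMSO for 24 h, 1 µM entinostat for 48 h and DMSO for 48 h. Entinostat inhibits class I histone deacetylases, DMSO was its solvent, all cells were grown in RPMI with fetal calf serum, and all groups come from this 1 line.

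Immediate early genes are transcribed within minutes of a growth factor or stress signal, without new protein synthesis, and their RNA is normally short-lived. The signal runs through MAP kinases to serum response factor (SRF) with its ETS partners and to CREB and ATF factors, which bind the promoters. AP-1 is the transcription factor made by a Jun protein paired with another Jun, a Fos or an ATF protein, and its function in cell growth, death and differentiation depends on the pair. After 24 h or 48 h of continuous treatment the measured RNA is a late level and not the first wave of induction.

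The bases before the start site of 6 members are shown because these members carried the contrast between those that rose at both times (EGR1, FOS, IER2), at 24 h only (JUN) and at neither time (FOSB, DUSP1). Of the 10 members, 9 had an entry in the RefSeq promoter table for GRCh38.p14, and the 250 bases before the start are printed on the strand of the gene. IER3, which also rose at both times, had no entry, so its promoter was not searched. EGR1 lies at chr5:138465229-138465478 on the plus strand, FOS at chr14:75278578-75278827 on the plus strand, IER2 at chr19:13150161-13150410 on the plus strand, JUN at chr1:58784048-58784297 on the minus strand, FOSB at chr19:45467746-45467995 on the plus strand and DUSP1 at chr5:172771196-172771445 on the minus strand. Capitals mark matches to the CArG box, which SRF can bind, and to TGACGT on either strand, the core of the site bound by CREB and ATF factors; matches of TGACGT that overlap within TGACGTCA are in 1 run of capitals.
EGR1: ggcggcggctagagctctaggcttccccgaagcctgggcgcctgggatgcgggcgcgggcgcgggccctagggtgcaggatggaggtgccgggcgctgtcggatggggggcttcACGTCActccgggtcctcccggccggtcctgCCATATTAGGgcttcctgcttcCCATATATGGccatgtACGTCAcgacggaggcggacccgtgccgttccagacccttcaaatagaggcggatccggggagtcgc
FOS: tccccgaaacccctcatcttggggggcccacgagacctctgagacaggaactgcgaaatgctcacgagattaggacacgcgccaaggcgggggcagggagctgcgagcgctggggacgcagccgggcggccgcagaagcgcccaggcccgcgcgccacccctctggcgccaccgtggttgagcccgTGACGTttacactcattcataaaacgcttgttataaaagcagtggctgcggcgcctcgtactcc
IER2: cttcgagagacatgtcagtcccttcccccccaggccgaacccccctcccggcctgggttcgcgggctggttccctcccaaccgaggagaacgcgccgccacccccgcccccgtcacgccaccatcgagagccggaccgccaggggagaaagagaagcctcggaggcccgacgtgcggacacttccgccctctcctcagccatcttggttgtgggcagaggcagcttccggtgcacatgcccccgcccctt
JUN: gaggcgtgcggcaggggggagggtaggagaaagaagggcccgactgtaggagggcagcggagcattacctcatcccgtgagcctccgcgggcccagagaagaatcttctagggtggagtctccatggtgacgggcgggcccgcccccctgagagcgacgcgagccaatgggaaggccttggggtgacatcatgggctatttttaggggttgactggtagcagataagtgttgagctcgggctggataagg
FOSB: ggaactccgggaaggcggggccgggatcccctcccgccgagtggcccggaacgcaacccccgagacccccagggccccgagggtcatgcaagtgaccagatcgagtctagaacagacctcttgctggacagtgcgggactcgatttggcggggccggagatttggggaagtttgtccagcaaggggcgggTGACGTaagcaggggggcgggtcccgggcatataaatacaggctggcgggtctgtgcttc
DUSP1: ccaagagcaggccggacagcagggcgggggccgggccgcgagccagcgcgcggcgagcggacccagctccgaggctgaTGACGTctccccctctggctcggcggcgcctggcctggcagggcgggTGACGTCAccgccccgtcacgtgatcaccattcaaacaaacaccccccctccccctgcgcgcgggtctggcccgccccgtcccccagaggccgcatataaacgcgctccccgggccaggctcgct

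Within these 250 bases, the CArG box was matched in 1 of the 9 members, EGR1, where 2 matches began 105 and 83 bases before the start, and in 1.16% of all 35116 promoter windows of this length. Bases further upstream were not searched, so a member without a match here may carry the site there. TGACGT on either strand was matched in 6 of 9 members (FOS, FOSB, FOSL2, JUND, EGR1 and DUSP1) and in 7.10% of all windows. The single match began 64 bases before the start in FOS, 60 in FOSB and 66 in FOSL2. The full palindrome TGACGTCA was matched in JUND and DUSP1, and in 1.65% of all windows. TGANTCA, the letters of the AP-1 site with any base allowed in the middle, was matched in 0 of 9 members within this window and in 6.57% of all. Sites that differ by a letter from the patterns named here were not searched. TGACGT was thus matched in members whose RNA rose at both times (FOS, EGR1). It was also matched in members whose brightest probe set passed at neither time (FOSB, FOSL2, JUND, DUSP1). Another FOSL2 probe set, 225262_at, did pass at 24 h (adjusted p = 0.00606 by limma), and JUND lay near the threshold there (adjusted p = 0.0535). The IER2 and JUN windows printed above held neither TGACGT nor a CArG box.

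The deposited intensities were on a linear scale and had been normalized between arrays, with medians between 80.6 and 81.8 and a lowest value of 36.7, so that a background level remained in every value and log2 fold changes of dim probe sets were smaller for it. Log2 was taken here, and limma was fitted to all arrays, with Benjamini-Hochberg adjustment over all probe sets and a threshold of 0.05. RNA quality was read from the log2 difference between 3' and 5' probe sets, which lay between -0.18 and -0.03 for GAPDH and between -0.16 and -0.03 for ACTB. Of 7 markers of Group 3 medulloblastoma, 0 were higher and 3 lower under entinostat at 24 h (IMPG2, GABRA5 and OTX2), and at 48 h MYC was higher and 3 were lower (IMPG2, GABRA5 and CRX). MYC and OTX2 were bright on all arrays, with group means of 11257 to 12998 and 5618 to 6995, and the largest shifts were -2.02 on the log2 scale at 24 h and -1.52 at 48 h for IMPG2 and -1.78 and -2.12 for GABRA5. Of 4 endothelial markers, KDR averaged 110.0 under entinostat and 53.3 in DMSO at 24 h, and 78.0 under entinostat and 54.0 in DMSO at 48 h. The 4 endothelial markers summed to 315 to 340 under entinostat and 246 to 270.2 in DMSO at 24 h, and to 282 to 299 under entinostat and 258 to 259 in DMSO at 48 h. KDR shifted most, and PECAM1, VWF and CDH5 had group means between 51.4 and 90.3 throughout. VWF averaged 72.4 under entinostat and 66.1 in DMSO at 24 h, and 71.4 and 64.5 at 48 h. It passed over both times (0.14 on the log2 scale, adjusted p = 0.0123 by limma) but at neither time alone. The 5 fibroblast markers summed to 327 to 346 under entinostat and 319 to 331 in DMSO at 24 h, and to 349 to 371 under entinostat and 336 to 345 in DMSO at 48 h. The 4 leukocyte markers summed to 278 to 307 under entinostat and 278 to 291 in DMSO at 24 h, and to 295 to 306 under entinostat and 277 to 294 in DMSO at 48 h, and no array value is 0. Of the leukocyte markers, CSF1R averaged 83.9 under entinostat and 71.2 in DMSO at 24 h, and 86.3 and 70.9 at 48 h. CSF1R passed at 48 h (0.29 on the log2 scale, adjusted p = 0.025 by limma) and over both times (0.26, adjusted p = 0.00342), but not at 24 h (adjusted p = 0.0679). The part of all these marker shifts in the results was not tested.

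A gene covered more than once is represented by its brightest probe set on average unless another is named. After 24 h of entinostat, FOS, JUN, EGR1, IER2 and IER3 passed the test as higher, 5 of 10 members, against 18.2% of all genes. No member was lower by limma at an adjusted p under 0.05 (0 of 10, against 15% of all genes) or at an unadjusted one (0 of 10, against 20.2%). By probe sets, 10 of 24 were higher, against 12.8% of all probe sets. After 48 h, FOS, JUNB, EGR1, IER2 and IER3 were higher, again 5 of 10, against 17.3% of all genes, and 7 of 24 probe sets were higher, against 12.9%. At 48 h, 0 members passed as lower (16.6% of all genes did), and 1, FOSL2, was lower at an unadjusted p under 0.05, against 21.2% of all genes. FOS, EGR1, IER2 and IER3 were higher at both times, 4 of 10 members, against 13.7% of all genes. The median log2 fold change over the 10 members was 0.46 at 24 h and 0.24 at 48 h, beside -0.02 at each time over all genes.

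**Figure D1:**
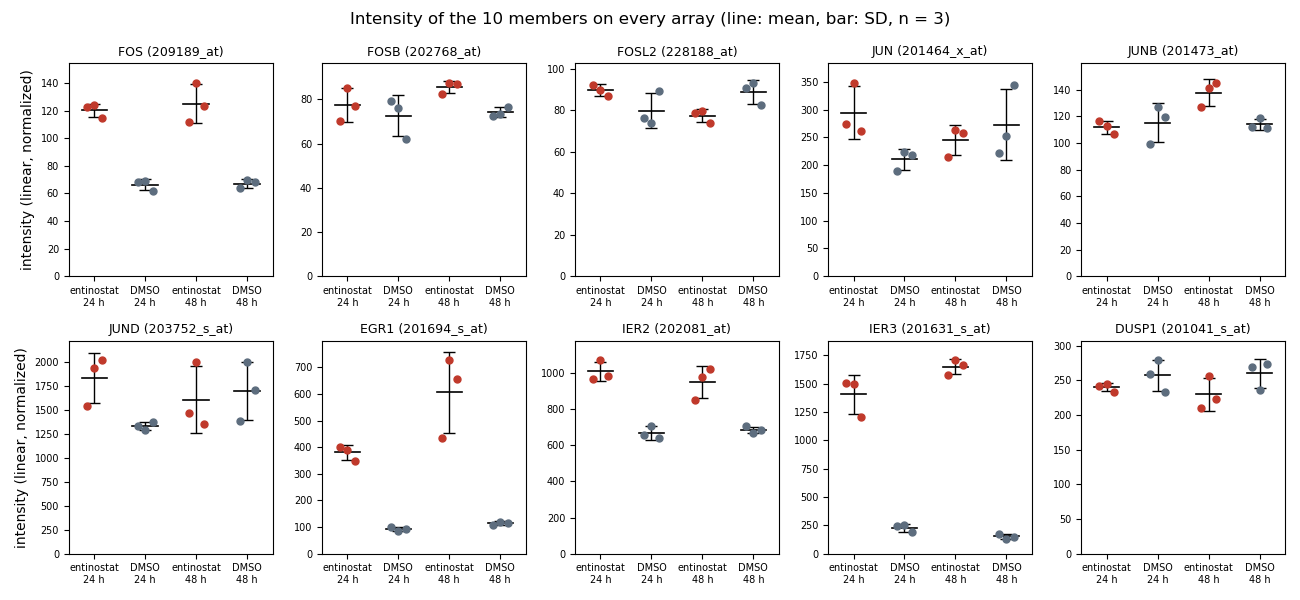
Linear normalized intensity (vertical axis, from 0, own scale in each panel) of the probe set standing for each of the 10 members, with 1 point per array for entinostat and DMSO at 24 h and at 48 h, a line at the mean and a bar of 1 SD (n = 3). All entinostat arrays sit above all DMSO arrays at both times for FOS, EGR1, IER2 and IER3, whereas those of DUSP1 overlap at both times.

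IER3 and EGR1 had the largest changes among the members. IER3 encodes a stress-inducible protein that acts on ERK signalling and cell survival. Its only probe set, 201631_s_at, read 1508, 1502 and 1209 on the entinostat arrays of 24 h, against 240.0, 257 and 191 on the DMSO arrays. The 48 h arrays read 1581, 1708 and 1666 under entinostat, against 174, 132 and 151 in DMSO. The lowest entinostat array was thus far above the highest DMSO array at each time. By limma the log2 fold change was 2.62 ± 0.13 (SE, adjusted p = 2.99e-08) at 24 h and 3.45 ± 0.13 (adjusted p = 3.67e-09) at 48 h, or 6.15-fold and 10.9-fold, which placed IER3 at rank 14 at 24 h and 5 at 48 h among 19775 genes ordered from the highest fold change down.

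The effect on IER3 was larger at 48 h than at 24 h by 0.83 on the log2 scale (95% confidence interval 0.44 to 1.22, adjusted p = 0.048), and IER3 was the 1 member of 10 past the test for this interaction, against 1.92% of all genes. At an unadjusted p under 0.05, the count was 5 of 10 (IER3 and, without passing the adjusted test, FOSL2, JUN, JUNB and JUND), against 16.2% of all genes. The IER3 means in entinostat were 1652 ± 65.1 (SD, n = 3) at 48 h and 1407 ± 171 at 24 h, a log2 difference of 0.24 (adjusted p = 0.342), and those in DMSO were 152 ± 21.3 at 48 h and 229 ± 34.2 at 24 h, a log2 difference of -0.59 (adjusted p = 0.0722). Neither of these time differences passed by itself. Leaving out single arrays ended the interaction call in 10 of 12 refits, all except those without DMSO replicate 3 at 24 h or DMSO replicate 1 at 48 h, with log2 values between 0.72 and 0.95 and adjusted p-values between 0.0244 and 0.110 over the 12. It was also lost when 30 was subtracted from every intensity before log2 (0.95, adjusted p = 0.10).

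EGR1 encodes a zinc finger transcription factor that is induced by growth factors through SRF. Its probe set 201694_s_at read 403, 390.4 and 349 under entinostat at 24 h, against 101, 84.1 and 93.9 in DMSO. At 48 h it read 436, 727 and 656 under entinostat, against 107, 119.8 and 116 in DMSO. No entinostat array came near a DMSO array, and the spread was widest in the entinostat arrays of 48 h, where replicate 1 was low. The log2 fold change was 2.03 ± 0.15 (SE, adjusted p = 8.51e-07) at 24 h and 2.38 ± 0.15 (adjusted p = 2.09e-07) at 48 h, or 4.10-fold and 5.20-fold. The 2 effects differed by 0.34 (95% confidence interval -0.12 to 0.81, adjusted p = 0.57). Within entinostat, EGR1 averaged 606 ± 151 at 48 h and 381 ± 27.9 at 24 h (SD, n = 3), a log2 difference of 0.64 (adjusted p = 0.0231), and was the 1 member of 10 higher at the later time, against 3.96% of all genes.

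The other EGR1 probe sets moved the same way by smaller amounts. Probe set 227404_s_at read 202, 185 and 184 under entinostat and 64.1, 65.2 and 67.2 in DMSO at 24 h, and 222, 379 and 259 under entinostat against 76.1, 71.7 and 65.7 in DMSO at 48 h. It rose by 1.54 on the log2 scale at 24 h (adjusted p = 6.4e-06) and by 1.98 at 48 h (adjusted p = 7.19e-07). Probe set 201693_s_at was dim, with 91.5, 90.2 and 91.7 under entinostat and 65.4, 77.6 and 78.0 in DMSO at 24 h, and 113, 138 and 108 under entinostat against 81.8, 77.1 and 71.6 in DMSO at 48 h. It had log2 fold changes of 0.31 (adjusted p = 0.0281) and 0.63 (adjusted p = 0.000246), and its call at 24 h was lost without DMSO replicate 1 or any 1 of the 3 entinostat replicates of 24 h, with log2 values of 0.23 to 0.32 and adjusted p-values of 0.0641 to 0.121. The 3 probe sets therefore gave 1 direction and different sizes of change.

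IER2 encodes a small nuclear protein of the immediate early response. It read 968, 1069.9 and 985 under entinostat at 24 h, against 654, 709 and 639 in DMSO. The 48 h arrays read 849, 977 and 1023 under entinostat, against 703, 667 and 684 in DMSO. All entinostat arrays were above all DMSO arrays at both times. By limma the log2 fold change was 0.60 ± 0.07 (SE, adjusted p = 5.84e-05) at 24 h and 0.47 ± 0.07 (adjusted p = 0.000363) at 48 h, or 1.51-fold and 1.38-fold, and the interaction was -0.13 (95% confidence interval -0.35 to 0.10, adjusted p = 0.697).

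**Figure D2:**
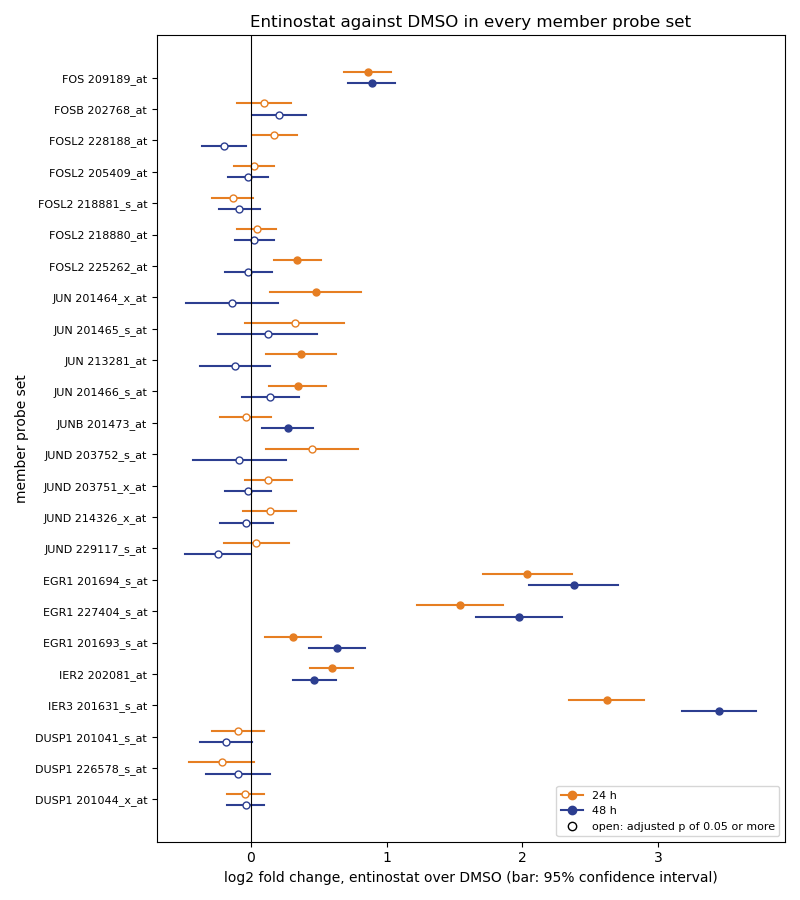
Log2 fold change of entinostat over DMSO (horizontal axis) at 24 h and at 48 h for each of the 24 member probe sets (rows), with bars for the 95% confidence interval and filled points where the adjusted p was under 0.05. IER3 and probe sets 201694_s_at and 227404_s_at of EGR1 lie furthest right, between 1.54 and 3.45, FOS and IER2 lie between 0.47 and 0.89, and the points of DUSP1 are all open.

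Among the Fos proteins, which bind DNA as partners of Jun, FOS itself rose and its relatives FOSB and FOSL2 did not pass the test with the probe sets standing for them. FOS read 122, 124 and 115 under entinostat at 24 h, against 67.9, 69.0 and 61.9 in DMSO. At 48 h it read 112, 140.2 and 123 under entinostat, against 63.8, 69.6 and 68.0 in DMSO. The entinostat arrays lay above the DMSO arrays at both times, and the DMSO values were dim. The log2 fold change was 0.86 ± 0.08 (SE, adjusted p = 5.2e-06) at 24 h and 0.89 ± 0.08 (adjusted p = 3.45e-06) at 48 h, or 1.82-fold and 1.86-fold, with an interaction of 0.03 (95% confidence interval -0.21 to 0.28). With 30 subtracted before log2, these values became 1.32 and 1.35, so the size of the FOS change depends on the background left in the intensities.

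FOSB read 70.2, 85.2 and 77.0 under entinostat at 24 h, against 79.5, 76.3 and 62.0 in DMSO, and these ranges overlap. The 48 h arrays read 82.5, 87.6 and 86.8 under entinostat, against 72.7, 73.4 and 76.7 in DMSO, and these do not. By limma the log2 fold change was 0.10 (95% confidence interval -0.10 to 0.30, adjusted p = 0.526) at 24 h and 0.21 (0.01 to 0.41, adjusted p = 0.132) at 48 h. Non-overlapping arrays with entinostat higher were found for 23.1% of all genes at 24 h and 21.9% at 48 h. Without DMSO replicate 3 of 24 h the 48 h value of FOSB passed (0.21, adjusted p = 0.0492), as it did with the 48 h arrays fitted alone (adjusted p = 0.0304).

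FOSL2, which encodes the Fos-related protein FRA-2, had 5 probe sets, all dim. Probe set 228188_at read 92.3, 89.9 and 86.7 under entinostat and 76.2, 73.9 and 89.3 in DMSO at 24 h, and 78.8, 79.7 and 73.7 under entinostat against 90.8, 93.3 and 82.4 in DMSO at 48 h. Its values were thus mostly above DMSO at 24 h and all below DMSO at 48 h, as found at 48 h for 23.3% of all genes. The log2 fold change was 0.17 (adjusted p = 0.125) at 24 h and -0.20 (adjusted p = 0.0773) at 48 h, and the difference between the 2 times was -0.37 (95% confidence interval -0.60 to -0.14, adjusted p = 0.132). Without DMSO replicate 3 of 24 h, FOSL2 passed at 24 h (0.26, adjusted p = 0.018), at 48 h (-0.20, 0.0325) and in the interaction (-0.45, 0.0486), and without DMSO replicate 3 of 48 h it passed at 48 h (-0.25, adjusted p = 0.0444). Probe set 225262_at read 95.2, 76.2 and 77.4 under entinostat and 65.3, 63.7 and 65.9 in DMSO at 24 h, which was 0.34 on the log2 scale (adjusted p = 0.00606), and had -0.02 (adjusted p = 0.92) at 48 h. The remaining 3 probe sets had log2 fold changes between -0.13 and 0.04 over both times and did not pass.

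Jun proteins are the obligate partners of AP-1, with JUN a strong activator and JUNB and JUND weaker ones that can oppose it. JUN passed at 24 h only. Its probe set 201464_x_at read 273, 348 and 262 under entinostat at 24 h, against 189, 223 and 219 in DMSO. At 48 h it read 214, 263 and 257 under entinostat, against 222, 252 and 345 in DMSO. The arrays were separate at 24 h and overlapped at 48 h, where DMSO replicate 3 was the highest. By limma the log2 fold change was 0.48 ± 0.15 (SE, adjusted p = 0.0394) at 24 h and -0.14 (95% confidence interval -0.47 to 0.20, adjusted p = 0.614) at 48 h, and the difference between the times, -0.61 (-1.09 to -0.14), did not pass (adjusted p = 0.241). The 24 h call was lost in 6 of 12 refits, those without DMSO replicate 1 (0.40, adjusted p = 0.137), 2 (0.52, 0.0559) or 3 (0.51, 0.0686) of 24 h, without entinostat replicate 1 (0.52, 0.058) or 2 (0.35, 0.163) of 24 h, and without entinostat replicate 3 of 48 h (0.48, 0.0505). Subtracting 30 before log2 also ended it (0.54, adjusted p = 0.0506).

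The other JUN probe sets had positive log2 fold changes at 24 h as well. Probe set 201466_s_at ranged from 87.9 to 99.7 under entinostat and from 68.4 to 79.6 in DMSO (0.35, adjusted p = 0.0179), and 213281_at from 83.8 to 103 under entinostat and from 65.9 to 83.5 in DMSO (0.37, adjusted p = 0.0348). Probe set 201465_s_at, with 0.32 (adjusted p = 0.204), did not pass. At 48 h the log2 values of the 4 JUN probe sets were -0.14, 0.12, -0.12 and 0.14, so that the sign depended on the probe set, and none passed. Of the calls at 24 h, that of 201466_s_at was lost without DMSO replicate 1 or 2 or entinostat replicate 1 of 24 h (adjusted p-values up to 0.0758), and that of 213281_at without DMSO replicate 1 or 3 or entinostat replicate 2 or 3 of 24 h (up to 0.141).

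JUNB read 117, 112 and 107 under entinostat at 24 h, against 99.2, 127 and 119 in DMSO. The 48 h arrays read 127, 142 and 145 under entinostat, against 112, 119 and 111 in DMSO. The arrays overlapped at 24 h and were separate at 48 h. The log2 fold change was -0.04 (95% confidence interval -0.22 to 0.15, adjusted p = 0.831) at 24 h and 0.27 ± 0.09 (SE, adjusted p = 0.0351) at 48 h, and the difference between the times, 0.31 (0.04 to 0.57), did not pass (adjusted p = 0.304). The 48 h call was lost without DMSO replicate 1 (0.26, adjusted p = 0.094) or 3 (0.26, 0.1) or entinostat replicate 2 (0.25, 0.102) or 3 (0.23, 0.12) of 48 h, and with 30 subtracted before log2 (0.36, adjusted p = 0.0521).

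JUND was bright and uneven between replicates. Its probe set 203752_s_at read 1543, 1944 and 2024 under entinostat at 24 h, against 1337, 1291 and 1374 in DMSO. At 48 h it read 1469, 2009 and 1352 under entinostat, against 1392, 2003 and 1707 in DMSO. All 24 h entinostat arrays were above the DMSO arrays, and the 48 h groups covered nearly the same range. By limma the log2 fold change was 0.45 (95% confidence interval 0.11 to 0.79, adjusted p = 0.0535) at 24 h and -0.09 (-0.43 to 0.26, adjusted p = 0.774) at 48 h. The 24 h value passed in 5 of 12 refits, those without entinostat replicate 1 of 24 h (0.57, adjusted p = 0.0272), DMSO replicate 1 (0.45, 0.0371) or 2 (0.45, 0.0417) of 48 h, or entinostat replicate 2 (0.45, 0.022) or 3 (0.45, 0.0461) of 48 h. The same 0.45 also passed with only probe sets of a mean log2 of at least 7 tested (adjusted p = 0.0336), with a trended robust prior (0.0461) and with the 24 h arrays fitted alone (0.0149). The other 3 JUND probe sets, which read between 63.0 and 143 over all arrays, had log2 values of 0.04 to 0.14 at 24 h and -0.24 to -0.02 at 48 h, and none passed.

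**Figure D3:**
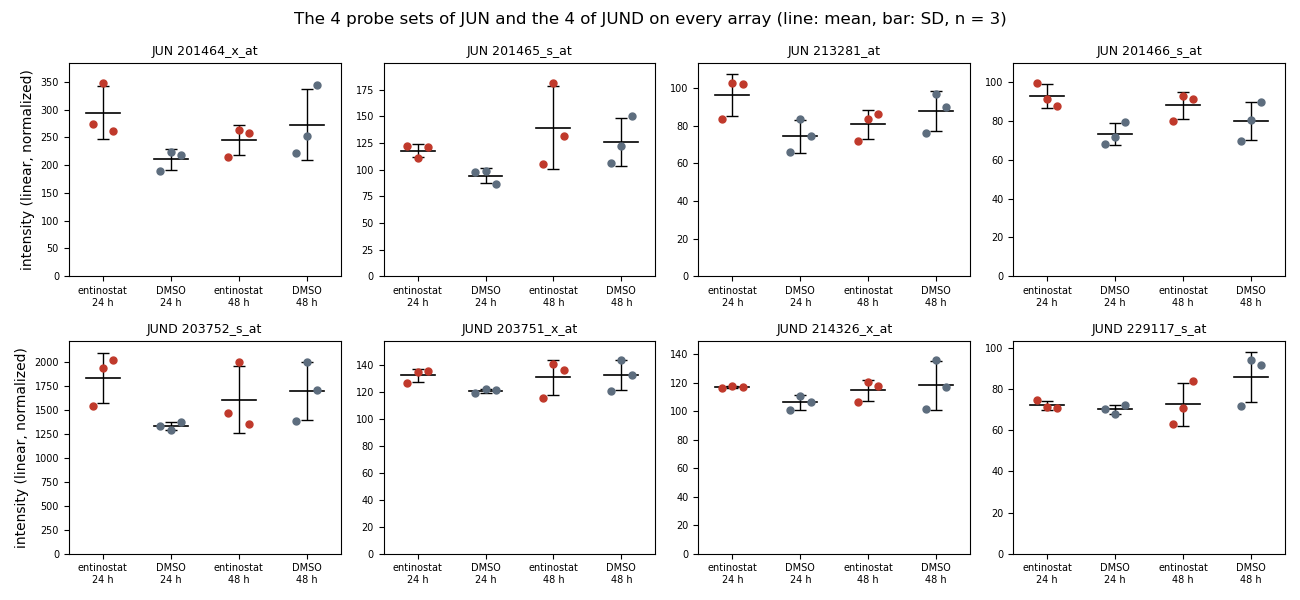
Linear normalized intensity (vertical axis, from 0, own scale in each panel) of the 4 JUN probe sets (top) and the 4 JUND probe sets (bottom), with 1 point per array, a line at the mean and a bar of 1 SD (n = 3). For JUN 201464_x_at and JUND 203752_s_at the entinostat arrays lie above the DMSO arrays at 24 h (JUN from 262 to 348 against 189 to 223) and among them at 48 h.

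DUSP1 encodes a phosphatase that switches off MAP kinases and is itself an immediate early gene. It read 243, 245 and 234 under entinostat at 24 h, against 259, 279 and 234 in DMSO. The 48 h arrays read 210.0, 256 and 223 under entinostat, against 270.0, 236 and 274 in DMSO. The arrays overlapped at both times. The log2 fold change was -0.10 (95% confidence interval -0.28 to 0.09, adjusted p = 0.508) at 24 h and -0.18 (-0.37 to 0.01, adjusted p = 0.168) at 48 h. Without entinostat replicate 2 of 48 h, the 48 h value passed (-0.26, adjusted p = 0.0469). The other 2 probe sets had log2 fold changes between -0.21 and -0.04 and did not pass.

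Culture time in DMSO changed no member by the test (0 of 10, against 0.46% of all genes), while JUN at 0.35 and IER3 at -0.59 on the log2 scale, 48 h over 24 h, were past an unadjusted p of 0.05, as were 13.1% of all genes. The members also differed in how even their replicates were. The residual SD around the group means was 0.22 on the log2 scale for JUN, 0.23 for JUND and 0.22 for EGR1, at the percentiles 96.4, 96.6 and 96.0 of all probe sets, against 0.10 for FOS and 0.09 for IER2, near the median of 0.09. On the arrays of entinostat replicate 2, at 24 h and likewise at 48 h, all 10 members were above their group mean, and on entinostat replicate 3 of 24 h and replicate 1 of 48 h only 1 of 10 was. Of all genes, between 48.6% and 53.7% were above their group mean on each array. These counts describe the arrays, and their part in the results was not tested.

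The genes around the members were read from lists of the same pathway, beside all genes, of which 18.2% passed as higher and 15% as lower at 24 h, beside 17.3% as higher and 16.6% as lower at 48 h, with a median of -0.02 on the log2 scale at each time. Among AP-1 partners and related bZIP factors, 14 of 16 listed genes had a probe set here, of which 24 h of entinostat left 6 higher and 2 lower, and 48 h left 7 higher and 1 lower, with medians of 0.15 and 0.11. ATF3, a stress-induced partner of Jun, averaged 309 ± 1.73 under entinostat and 133.3 ± 29.1 in DMSO at 24 h, and 261 ± 11.3 under entinostat and 153 ± 30.5 in DMSO at 48 h (SD, n = 3), with log2 fold changes of 1.23 (adjusted p = 6.17e-05) and 0.79 (adjusted p = 0.00181). BATF3 and BATF2, which pair with Jun in immune cells, rose by 1.12 and 0.76 at 24 h and by 1.21 and 0.80 at 48 h. MAF rose by 0.41 at 24 h and 1.09 at 48 h. FOSL1, the gene of FRA-1, had 0.01 (adjusted p = 0.97) and -0.03 (adjusted p = 0.817).

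Among 32 measured of 34 other immediate early genes, 17 were higher and 2 lower after the shorter treatment, 15 and 2 after the longer one, with medians of 0.39 and 0.24 on the log2 scale. SGK1, a kinase induced by serum and glucocorticoids, averaged 1773 ± 107 under entinostat and 343 ± 71.1 in DMSO at 24 h, and 1456 ± 145 under entinostat and 297 ± 3.03 in DMSO at 48 h, with log2 fold changes of 2.39 (adjusted p = 6.91e-08) and 2.29 (adjusted p = 8.04e-08). KLF4, a zinc finger factor, averaged 185 ± 3.37 under entinostat and 51.9 ± 0.208 in DMSO at 24 h, and 167 ± 30.9 under entinostat and 52.5 ± 2.52 in DMSO at 48 h, and rose by 1.83 and 1.65. The kinase genes PLK2 and PIM1 rose by 1.71 and 1.19 at 24 h and by 1.31 and 1.38 at 48 h, and IER5 rose by 0.93 and 1.04. EGR3, a relative of EGR1, was dim in every group (means of 51.4 to 55.3) and had 0.07 (adjusted p = 0.546) and 0.03 (adjusted p = 0.817), and NR4A1, a nuclear receptor, had 0.08 (adjusted p = 0.314) and -0.06 (adjusted p = 0.507).

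**Figure D4:**
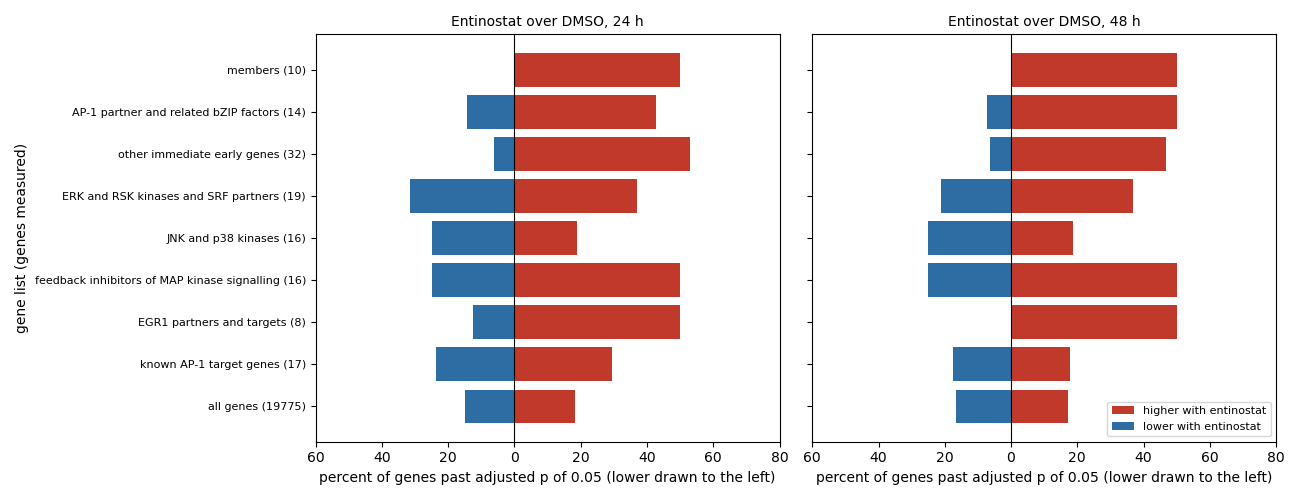
Percent of genes past an adjusted p of 0.05 (horizontal axis, higher to the right and lower to the left of 0) for entinostat over DMSO at 24 h and 48 h in the members, the 7 related gene lists and all genes (rows, genes measured in parentheses). The bar of the members reaches 50% higher at both times with 0 lower, and that of all genes 18.2% and 17.3% higher with 15% and 16.6% lower.

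Upstream of the members, changes ran both ways. Of 19 measured ERK and RSK kinases and SRF partners, 7 rose and 6 fell at 24 h, and 7 rose and 4 fell at 48 h, with medians of 0.16 and 0.12. The ERK-activated kinase genes RPS6KA1, RPS6KA3 and RPS6KA5 rose by 1.27, 0.83 and 0.70 on the log2 scale at 24 h and by 1.00, 1.04 and 0.39 at 48 h, and ELK4, an ETS partner of SRF, rose by 0.38 and 0.63. Of the same kinase family, RPS6KA4 fell, with -0.59 (adjusted p = 0.0205) and -0.61 (adjusted p = 0.0153), and RPS6KA2 had -0.04 (adjusted p = 0.68) and -0.02 (adjusted p = 0.897). Probe sets ending in _x_at or _s_at can bind several transcripts or genes. With these left out, RPS6KA5 had 0.00056 (adjusted p = 0.997) at 48 h and ELK4 0.26 (adjusted p = 0.0556) at 24 h, and neither value passed. The 48 h call of RPS6KA5 was also lost in 2 of 12 refits that left out 1 array (adjusted p up to 0.0624). SRF itself averaged 264 ± 14.0 under entinostat and 386 ± 26.7 in DMSO at 24 h, and 343 ± 35.7 under entinostat and 344 ± 22.1 in DMSO at 48 h, a change of -0.55 on the log2 scale (adjusted p = 0.00029) at 24 h and of -0.01 (adjusted p = 0.954) at 48 h. SRF, RPS6KA2 and RPS6KA4 were named after their values were seen. Of 16 measured JNK and p38 kinases and activators, 3 were higher and 4 lower at each time, with medians of 0.08 and 0.02. The genes that fell included MAPK12, a p38 kinase (-0.45 and -0.81), its activator MAP2K6 (-0.49 and -0.21), the JNK activator MAP2K4 (-0.49 and -0.42) and the stress kinase MAP3K5 (-0.70 and -0.80). Without _x_at and _s_at probe sets, MAP2K6 had -0.15 (adjusted p = 0.417) at 24 h and -0.07 (adjusted p = 0.746) at 48 h and did not pass.

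Of 16 feedback inhibitors of MAP kinase signalling, several of which are themselves induced by it, 8 were higher and 4 lower at each time, with medians of 0.19 and 0.35. DUSP5, a phosphatase of nuclear ERK, averaged 1051 ± 103 under entinostat and 435 ± 88.4 in DMSO at 24 h, and 1575 ± 90.8 under entinostat and 448 ± 35.1 in DMSO at 48 h, and rose by 1.29 (adjusted p = 7.81e-06) and 1.81 (adjusted p = 4.07e-07). DUSP10, which acts on JNK and p38, rose by 1.03 and 1.45, SPRED2 rose by 0.58 and 0.96, and DUSP7 fell, with -0.65 and -1.02. The 24 h call of SPRED2 was lost in 2 of 12 refits that left out 1 array (adjusted p up to 0.0529). It was also lost with the 24 h arrays fitted alone (adjusted p = 0.0549). The phosphatase genes thus went in different directions from one another, with the member DUSP1 past the test at neither time.

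Downstream, 8 of 10 listed EGR1 partners and targets were measured, with 4 higher at each time and 1 lower at 24 h, and medians of 0.21 and 0.18. EGR3 and NR4A1 are on this list and on that of other immediate early genes. NAB2, a corepressor that EGR1 induces and that binds it, averaged 174 ± 1.27 under entinostat and 126 ± 2.04 in DMSO at 24 h, and 179 ± 7.40 under entinostat and 125 ± 6.08 in DMSO at 48 h, and rose by 0.47 (adjusted p = 2.34e-05) and 0.52 (adjusted p = 9.84e-06). FN1, the fibronectin gene, rose by 1.27 and 1.39, TGFB1 by 0.34 and 0.51 and PDGFA by 0.41 and 0.26. With probe sets ending in _x_at or _s_at left out, which mark probes that can bind several transcripts or genes, other probe sets stood for FN1 and TGFB1. FN1 then had 0.02 (adjusted p = 0.896) at 24 h and -0.07 (adjusted p = 0.558) at 48 h. TGFB1 had -0.01 (adjusted p = 0.955) at 24 h and 0.10 (adjusted p = 0.435) at 48 h, so neither gene passed at either time. Of 17 known AP-1 target genes, 5 rose and 4 fell at 24 h, and 3 rose and 3 fell at 48 h, with medians of 0.02 and 0.05. MMP9, a matrix protease, averaged 319.9 ± 11.1 under entinostat and 84.4 ± 5.18 in DMSO at 24 h, and 386 ± 22.0 under entinostat and 87.5 ± 9.05 in DMSO at 48 h, and rose by 1.92 (adjusted p = 9.74e-09) and 2.14 (adjusted p = 3.44e-09). HMOX1, heme oxygenase, rose by 1.84 and 1.73, and CD44, a hyaluronan receptor, fell, with -1.44 and -1.66. PLAUR, the urokinase receptor, fell, with -0.24 and -0.35, and had 0.13 and 0.01 with those probe sets left out.

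The genes whose pattern over the 12 arrays was most like that of EGR1, by the root mean square difference of log2 values centred on the mean of each gene, were CRYM (0.20), ADGRL1 (0.21) and VHRT (0.22). For IER3 they were FKBP1B (0.22), FYTTD1 (0.24) and SPINK2 (0.27). The 24 h and 48 h effects on the log2 scale were 1.71 and 2.19 for CRYM and 2.89 and 3.04 for FKBP1B.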

How the data were processed

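RNA of HD-MB03 cells was measured on 12 arrays, 3 per group. The deposited intensity values were, per the paper's methods and the labels, GCRMA normalized by the authors (version not given in the sources used here). The methods name a log2 transformation, whereas the deposited intensities are linear and keep a background level, so they may be another export; log2 was taken here. The number of arrays limits the precision.

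The 62 control probe sets were dropped, which leaves 54613 for the tests, with 2 empty cells. Of these, 41091 carried 1 gene symbol, 1801 several and 11721 none, and only the first were named. A linear model with a coefficient for every group was run over the whole table with limma 3.58.1 (R 4.3.3), for entinostat against DMSO at each time, their interaction, both times and the time differences. The probe set with the highest mean stood for a gene. Motifs were searched in RefSeq promoter windows on both strands. The procedure was tested on simulated data.

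Members and lists were chosen with earlier results of these data known. All members are described; of each list, up to 4 genes with the largest change among those past the threshold at both times in 1 direction are named, with FOSL1, EGR3, IER5 and NR4A1 whatever their values, and the 3 genes most like each member changed by at least 1 on the log2 scale. Listed genes without a probe set of their own were not analysed here. Alternatives were quantile normalization, centred arrays, subtraction of 30, normexp with an offset of 50, a filter at a mean log2 of 7, a replicate block, a trended prior, a fit of each time alone, the strongest probe set, dropping _x_at and _s_at probe sets, a threshold of 0.01 and leaving out each array in turn.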

Additional observations from a re-analysis of the deposited data

Results flagged for a closer look

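In 4 of the genes described, the effect of entinostat differed between 48 h and 24 h by limma's interaction test. The difference on the log2 scale was 0.83 for IER3 (adjusted p = 0.048), whose arrays were higher under entinostat at both times. It was 0.68 for MAF (adjusted p = 0.0436), which averaged 142 ± 18.6 under entinostat and 66.2 ± 1.69 in DMSO at 48 h, and 99.2 ± 6.31 under entinostat and 74.9 ± 8.67 in DMSO at 24 h (SD, n = 3). It was 0.54 for SRF (adjusted p = 0.0497), which was lower under entinostat at 24 h and had nearly equal means at 48 h. It was -0.36 for DUSP7 (adjusted p = 0.0457), which averaged 254 ± 14.2 under entinostat and 513 ± 2.51 in DMSO at 48 h, and 269 ± 5.70 under entinostat and 424 ± 17.4 in DMSO at 24 h. All 4 lie close to the threshold. With 30 subtracted before log2 all 4 were lost, with adjusted p-values of 0.10 for IER3, 0.0937 for MAF, 0.117 for SRF and 0.148 for DUSP7. MAF was also lost with its strongest probe set (0.43, adjusted p = 0.432). The SRF call was lost with centred arrays (adjusted p = 0.0579) and a trended prior (0.0603). That of DUSP7 was lost with a trended prior (0.0729), the replicate block (0.0626) and without _x_at and _s_at probe sets (0.051). When 1 array at a time was dropped, the call was lost in 12 refits for SRF, 10 for IER3, 10 for MAF and 11 for DUSP7 of 12 each, with adjusted p-values of up to 0.119, 0.110, 0.103 and 0.107 in that order, whereas the sign was the same in all of them.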

How the results depend on the processing

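The calls of FOS, EGR1, IER2 and IER3 at 24 h and at 48 h held under every alternative that kept their probe sets. A mean log2 of at least 7 kept 6 member genes and 7 member probe sets, and 6 member genes were left once _x_at and _s_at probe sets were removed. EGR1, IER3, JUND and DUSP1 had only _x_at or _s_at probe sets, so they were not tested without them. With the filter at 7, FOS was no longer tested and JUND passed, so that member genes higher at 24 h stayed at 5, and 5 member probe sets were higher at 24 h, 3 genes and 3 probe sets at 48 h and 3 probe sets over both times, and 638 of all genes passed the interaction (380 without the filter). Without _x_at and _s_at probe sets, 3 member genes and 4 probe sets were higher at 24 h, 3 and 3 at 48 h, 0 and 0 in the interaction and 2 and 2 over both times; TGFB1 had -0.0095 and PLAUR 0.13 at 24 h, and FN1 -0.068 and PLAUR 0.015 at 48 h. With 30 subtracted, 0 member genes and 0 probe sets passed the interaction, and 76 of all genes. With a threshold of 0.01, 6 member probe sets were higher at 24 h, 0 genes and 0 probe sets passed the interaction, and 67 of all genes. With the strongest probe set for each gene, JUN had 0.14 at 48 h and DUSP1 0.12 in the interaction.

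Same-numbered arrays correlated in their deviations from the group means between -0.06 and 0.20 (other pairs between -0.21 and 0.07), and since not every same-numbered pair was over 0.1, the numbers were not taken to pair the samples. That 8 of 12 arrays correlated best with their own number is a hint of pairing from the data, not from the design. With the replicate block, 6 member genes were higher at 24 h (5 without it), 1 member probe set, of JUN, was lower in the interaction, and JUND passed at 24 h (0.45, adjusted p = 0.0243).

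Over the 12 refits that each left out 1 array, member probe sets higher at 24 h numbered 6 to 11, and 0 to 1 member genes and probe sets were lower at 48 h, over both times and in the interaction, and 0 to 1 higher in the interaction, with 123 to 285 of all genes. The log2 values that changed sign ran, at 24 h, from -0.14 to 0.040 for JUNB, -0.034 to 0.057 for FOSL1 and -0.013 to 0.17 for FOSB, and at 48 h from -0.26 to 0.041 for JUND, -0.074 to 0.033 for FOSL1, -0.067 to 0.017 for FOSL2 225262_at, -0.025 to 0.10 for EGR3, -0.093 to 0.046 for SRF and -0.27 to 0.045 for JUN; the FOS interaction ran from -0.054 to 0.11. The cause was not tested.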
